A study of Mus musculus with 35 samples.

Results

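The plasminogen system and the matrix proteases that act beside it were followed through 9 genes of the mouse hippocampus: the plasminogen activators Plat and Plau, the urokinase receptor Plaur, the kallikrein-related peptidase Klk6, the matrix metalloproteinases Mmp3 and Mmp9, their tissue inhibitor Timp1, and the aggrecanase-type proteases Adamts1 and Adamts4. They were chosen with earlier results of these data known and taken by symbol from tables of 32544 genes. All 9 were found and passed the filter on low counts in every comparison. Young adult male C57BL/6JOlaHsd mice had received kainic acid into the amygdala (IAKA), which triggers status epilepticus, with lorazepam to curb it, or PBS in place of kainic acid, and hippocampi were taken at 24 h or 2 weeks after perfusion with PBS. No mouse carried an engineered allele. RNA immunoprecipitated with an antibody against m6A gave 19 libraries, from 5 IAKA and 3 PBS mice at 24 h while the 2-week groups had 6 IAKA and 5 PBS mice. Input libraries of total RNA with enough counts to use numbered 13, from 3 IAKA mice and 1 PBS mouse at 24 h and 6 IAKA and 3 PBS mice 2 weeks after injection, and each library came from 1 mouse.

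Plasminogen is an inactive precursor that circulates in blood and is made in small amounts in brain. Plat (tissue-type activator) and Plau (urokinase) cleave it to plasmin, a broad serine protease that digests fibrin and matrix and in turn activates some metalloproteinases. Plaur holds urokinase at the cell surface, serpins block the activators, TIMPs block the metalloproteinases, and ADAMTS proteases cut the chondroitin sulfate proteoglycans of brain matrix. In the hippocampus this system is known for its roles in synaptic plasticity and in excitotoxic injury. An m6A library measures transcripts carrying N6-methyladenosine, so its value for a gene follows both the amount of RNA and the share that is methylated.

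Total counts ran from 1652933 to 34564536 (median 15291875) in the m6A libraries and from 3057578 to 12694434 (median 5498360) in the input libraries used. The m6A libraries of IAKA mice 67 and 98 at 24 h were shallow, with 1979606 and 1652933 counts. Levels are given as CPM, the count scaled to a library total of 1000000. Excitatory neuron markers were present in all 32 libraries, with summed levels of 8 genes from 1055 to 6678 CPM, and the dentate granule cell marker Prox1 was above 0 in each. Mouse 8 (IAKA, 24 h) stood apart in both assays. It had the lowest excitatory neuron sum of the m6A set (1055 CPM) and the lowest astrocyte sum at 24 h (1098 CPM against 3133 to 5244 CPM in the other m6A libraries of that time), and mitochondrial genes took 16.4% of its m6A counts and 17.4% of its input counts. The m6A columns fall into 3 sets by the number that opens their names, and groups were spread unevenly over these sets, so values within a set are given where they turn a direction or a call or change a size. The set starting with 3 holds no PBS library at either time. IAKA mice 67, 98 and 8 at 24 h and 42, 5 and 6 at 2 weeks belong to it. For these mice set and treatment cannot be told apart. Input columns also fall into sets, by whether their names start with Input, and every PBS input library used has a name that does not. IAKA mice 8 at 24 h and 6, 7 and 9 at 2 weeks have names that do. For their input libraries too, set and treatment cannot be told apart. The labels and columns do not say what the sets are. In bulk tissue, fewer cells of a type and less RNA per cell cannot be told apart.

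Plaur and Klk6 both lie on chromosome 7, at chr7:24460937-24475970 and chr7:43824438-43832027 of GRCm38.p6, a patch release of the mm10 build that the submitters name. The other members lie at chr1:171250129-171262267 (Adamts4), chr2:164940326-164955850 (Mmp9), chr8:22757722-22782848 (Plat), chr9:7445822-7455975 (Mmp3), chr14:20836662-20843388 (Plau), chr16:85793827-85803113 (Adamts1) and chrX:20870166-20874737 (Timp1). All 9 are annotated as protein coding. Timp1 lies inside the span of Syn1 (chrX:20860511-20920918), a synaptic vesicle gene. The counting is not known to have used strand, so reads of this pair may have been split. Syn1 did not pass the test in any comparison. At 24 h in m6A libraries Syn1 differed by -0.03 ± 0.49 (SE) on the log2 scale.

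RefSeq promoter windows, 250 bases before to 50 after a start, were given for 5 of the 9 genes (6 windows). Those of Plaur and Mmp3 are printed because they hold the AP-1 motif TGANTCA, the element bound by Fos and Jun proteins, which neuronal activity induces, and that of Klk6 because its level changed most in m6A libraries. The windows are chr7:24462233-24462532 (Plaur), chr9:7445572-7445871 (Mmp3) and chr7:43825200-43825499 (Klk6, the second of 2 windows), all on the plus strand of GRCm38.p6, in lower case with the AP-1 motif in capitals:
Plaur: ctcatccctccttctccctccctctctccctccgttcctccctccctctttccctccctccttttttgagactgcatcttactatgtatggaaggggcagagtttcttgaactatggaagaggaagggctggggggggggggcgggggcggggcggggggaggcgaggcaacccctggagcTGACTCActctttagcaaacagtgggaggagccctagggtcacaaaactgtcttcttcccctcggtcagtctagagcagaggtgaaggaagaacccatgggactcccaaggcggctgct
Mmp3: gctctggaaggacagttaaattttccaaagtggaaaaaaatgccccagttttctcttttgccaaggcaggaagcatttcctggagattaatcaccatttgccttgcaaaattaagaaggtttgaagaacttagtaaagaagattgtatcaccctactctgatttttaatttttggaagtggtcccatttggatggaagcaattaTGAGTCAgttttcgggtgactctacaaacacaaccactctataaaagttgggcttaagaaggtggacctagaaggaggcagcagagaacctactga
Klk6: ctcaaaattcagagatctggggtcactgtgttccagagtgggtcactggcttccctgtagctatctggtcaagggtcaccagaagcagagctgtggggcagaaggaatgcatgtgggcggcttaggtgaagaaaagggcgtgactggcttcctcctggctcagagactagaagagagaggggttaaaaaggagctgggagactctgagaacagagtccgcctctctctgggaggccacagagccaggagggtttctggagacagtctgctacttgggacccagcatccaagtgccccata
The motif begins 69 bases before the start used for the Plaur window (TGACTCA, chr7:24462414-24462420). That start lies inside the annotated span of the gene, which begins at chr7:24460937. In the Mmp3 window the motif begins 46 bases before the start (TGAGTCA, chr9:7445776-7445782). Searched on both strands, the motif stands in 2565 of 32851 promoter windows of this length (7.81%). It was not found in the windows of Klk6, Adamts1 or Timp1. The CRE motif TGACGTCA (588 windows, 1.79%) and the STAT motif TTCNNNGAA (2726 windows, 8.30%) were found in no member window. The loose NF-kB pattern, which 16686 windows (50.8%) hold, was found in windows of Plaur, Klk6, Adamts1 and Timp1, and no match overlapped an AP-1 match. For Klk6 the pattern lies in the first window, which is not printed. Such matches describe letters and show no binding.

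At 24 h, transcripts of Plaur and Klk6 were clearly higher in the m6A libraries of IAKA mice. The mean of Klk6 was 5.65 ± 2.33 CPM (SD, n = 5) in IAKA and 0.338 CPM in PBS mice (n = 3), and that of Plaur was 2.92 ± 0.75 CPM and 0.205 CPM. These were the 2 of 9 members with an adjusted p under 0.05 in edgeR (quasi-likelihood), where 0.178% of the 17440 genes tested passed. Timp1, Mmp3 and Adamts1 had log2 fold changes from 1.97 to 3.10 that did not pass. DESeq2 on the same counts also called Timp1 (adjusted p = 0.00535) and Adamts1 (adjusted p = 0.0389), where 1.16% of all genes passed. Voom with quality weights called these and Mmp3 (adjusted p = 0.014), where 7.85% of all genes passed. All 9 fitted differences were above 0, with a median of 1.97 on the log2 scale, beside 58.5% of all genes above 0 and a median of 0.09. At an unadjusted p under 0.05, 5 of 9 members were higher, against 5.1% of all genes. In 4 of them (Klk6, Plaur, Timp1 and Mmp3) every IAKA library was above every PBS library, which held for 2.53% of all genes. Because the members were chosen with earlier results of these data known, their shares beside those of all genes are only a description. Without mouse 8 the log2 fold changes of Timp1, Mmp3 and Adamts1 were 2.69 ± 0.69, 2.70 ± 0.99 and 2.16 ± 0.58, and none passed (adjusted p from 0.149 to 0.453). Markers of other cells moved in both directions at 24 h in the m6A set, none of them past the test. Differences above 0 were found for 0 of 8 excitatory neuron (median -0.44), 2 of 8 oligodendrocyte (-0.39) and 3 of 8 astrocyte markers (-0.28). They were also found for 4 of 4 neutrophil and monocyte markers tested (1.32), 4 of 5 blood (0.65) and 7 of 8 microglia markers (0.18). For inhibitory neuron markers it was 4 of 6 (0.11), and for meningeal and fibroblast markers 3 of 8 (-0.06). All 8 choroid plexus markers had a difference above 0 (median 1.14), with a summed level from 60.3 to 1049 CPM in IAKA and from 65.4 to 631 CPM in PBS libraries, and 6 of 8 endothelial markers did (median 0.33), with sums from 307 to 509 CPM and from 245 to 315 CPM. Their part in the members' values was not tested.

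**Figure D1:**
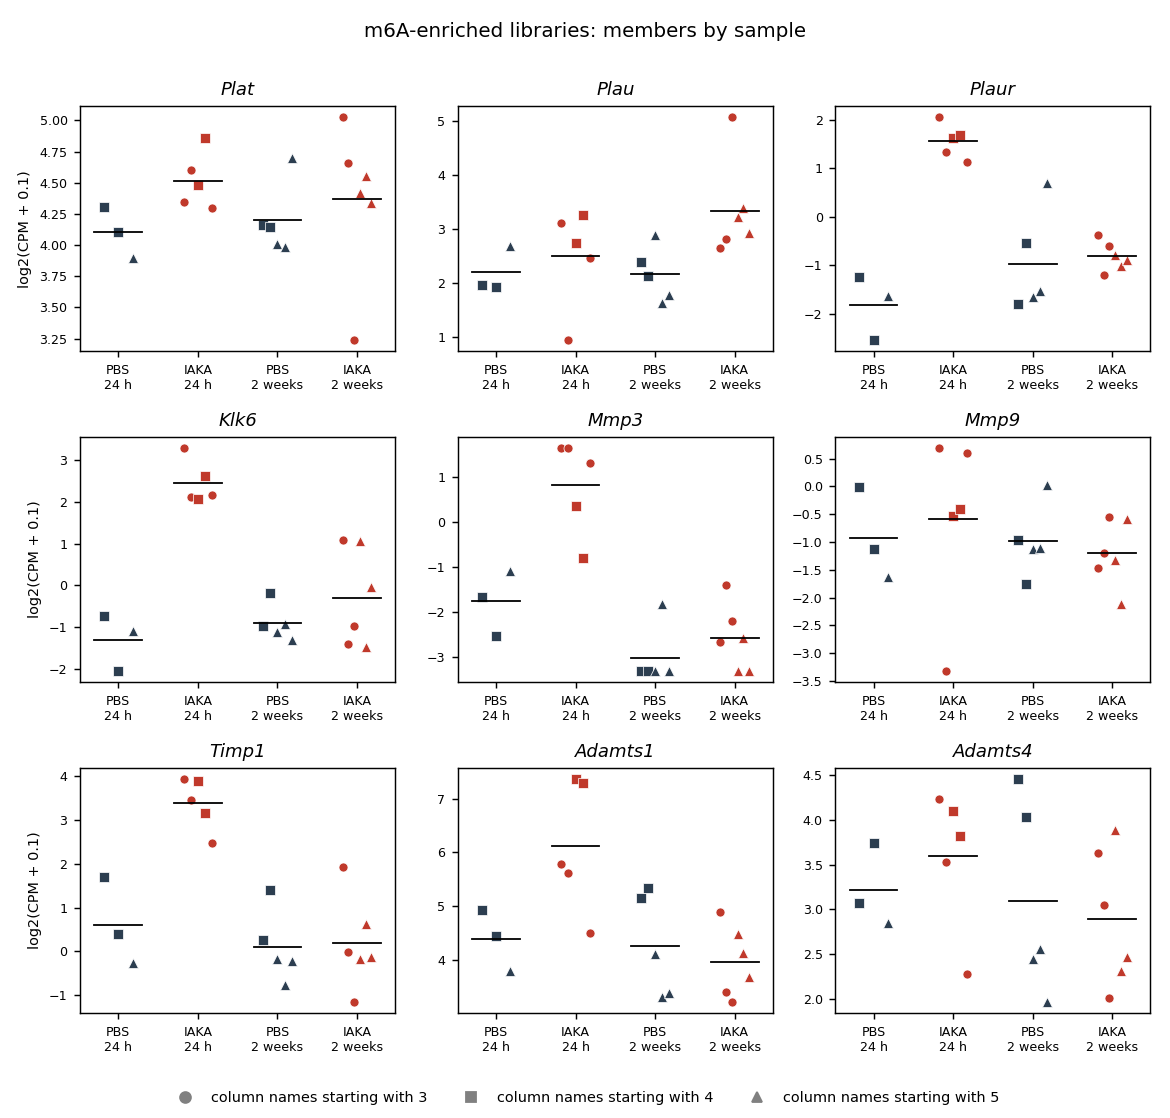
Level of each gene in every m6A library, as log2(CPM + 0.1), by treatment and time, with IAKA in red, PBS in dark blue, 1 point per mouse, a bar at the group mean and marker shapes for the sets of column names. Klk6, Plaur, Timp1 and Mmp3 at 24 h show IAKA points that all lie above the PBS points, while at 2 weeks the groups overlap for every gene.

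Plaur encodes the receptor that gathers urokinase at the membrane. At 24 h its m6A levels were 4.04, 3.10, 2.08, 2.97 and 2.42 CPM in IAKA mice 67, 79, 8, 97 and 98, and 0.22, 0.32 and 0.07 CPM in PBS mice 1, 71 and 73. The groups did not overlap, and the lowest IAKA library also stood above all 8 PBS libraries of both times, of which the highest was at 1.52 CPM. The log2 fold change was 3.70 ± 0.71 (SE; edgeR, adjusted p = 0.0335). These are low counts, 179 over the 5 IAKA libraries and 13 over the 3 PBS libraries. In the input libraries it reached 2.73, 2.72 and 0.77 CPM in IAKA mice 67, 8 and 98, and 0.63 CPM in the PBS mouse. The input log2 fold change of 2.036 ± 1.201 did not pass (adjusted p = 0.648, edgeR). At 2 weeks Plaur ran from 0.34 to 0.67 CPM in m6A libraries of IAKA mice (median 0.46) and from 0.19 to 1.52 CPM in PBS mice (median 0.24), with a log2 difference of 0.04 ± 0.50. The IAKA effect in m6A libraries was larger at 24 h than at 2 weeks by 3.66 ± 0.86 on the log2 scale (unadjusted p = 0.000381), and this did not pass the adjustment over all genes (adjusted p = 1.00 in edgeR).

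Klk6 (neurosin) is a secreted serine protease that in the adult central nervous system is best known from oligodendrocytes, and it can cleave myelin and matrix proteins and activate protease-activated receptors. At 24 h in the m6A set it stood at 9.60, 5.97, 4.38, 4.08 and 4.24 CPM in IAKA mice 67, 79, 8, 97 and 98, and at 0.37, 0.50 and 0.14 CPM in PBS mice 1, 71 and 73. There was no overlap, and the highest of all 8 PBS libraries had 0.78 CPM. The log2 fold change was 3.96 ± 0.73 (SE; edgeR, adjusted p = 0.0317). The summed level of 8 oligodendrocyte markers ran from 1485 to 2934 CPM in the IAKA and from 1889 to 3926 CPM in the PBS libraries, and 2 of these 8 markers had a difference above 0. The part of cell composition in the Klk6 result was not tested beyond these values.

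In the input libraries Klk6 showed the largest fitted difference of any member. The IAKA libraries at 24 h held 7.82, 4.86 and 3.93 CPM (mice 67, 98 and 8), from 101 counts in all, and the PBS library held 2 counts, or 0.16 CPM. The ratio of these pooled counts was 33.2, with an exact 95% interval of 8.95 to 278 that covers counting error only. At 2 weeks the 6 IAKA input libraries ran from 0.50 to 3.43 CPM (median 0.97), and the 3 PBS libraries held 0, 1 and 0 counts. The IAKA mean was 0.589 CPM in the 3 libraries with column names starting with Input, a set with no PBS library used. It was 2.15 CPM in the 3 with no prefix, the set of all PBS libraries used. Every IAKA library was above every PBS library, as for 2.36% of all genes in that comparison, and the pooled ratio was 14.5 (exact 95% interval 2.44 to 588). In edgeR the adjusted p was 0.315 at 24 h and 0.544 at 2 weeks. The m6A levels of Klk6 at 2 weeks ran from 0.26 to 2.02 CPM in IAKA mice (median 0.65) and from 0.30 to 0.78 CPM in PBS mice (median 0.41), so the groups overlapped. IAKA mice 42 and 21 had the highest level of the 2-week group in both assays.

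The calls of Klk6 and Plaur in m6A libraries rested on most of the libraries at once. Without IAKA mouse 8 or 98 both kept an adjusted p between 0.0349 and 0.0378 in edgeR. Without IAKA mouse 67, 79 or 97, or any PBS mouse of 24 h, neither passed (adjusted p from 0.0678 to 0.331), while the log2 fold changes stayed between 3.36 and 4.30. Within the set of column names starting with 4, which holds 2 IAKA and 2 PBS libraries at 24 h, Klk6 differed by 3.70 ± 0.50 (adjusted p = 0.0208, edgeR) and Plaur by 3.63 ± 0.57 (adjusted p = 0.0317), where 2.11% of all genes passed. With only the 24 h groups in the fit, the adjusted p values were 0.083 for Klk6 and 0.103 for Plaur, and without a filter on low counts Plaur had 0.0512.

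Plat and Plau are the proteases that make plasmin. Plat was the more even of the pair. It stood at 20.2, 28.9, 19.6, 22.3 and 24.2 CPM in m6A libraries of IAKA mice 67, 79, 8, 97 and 98 at 24 h, and at 14.8, 19.7 and 17.1 CPM in PBS mice 1, 71 and 73. All but mouse 8 exceeded the highest PBS value. The log2 difference was 0.41 ± 0.27 in edgeR (adjusted p = 0.821). In input libraries it was 0.53 ± 0.32 at 24 h and 0.53 ± 0.20 at 2 weeks (unadjusted p = 0.122 and 0.0215, adjusted p = 0.658 and 0.573 in edgeR). At 2 weeks in m6A libraries it ran from 9.33 to 32.5 CPM in IAKA mice (median 22.3), and from 15.8 to 25.8 CPM in PBS mice (median 17.5).

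Plau did not pass at 24 h. Its m6A levels were 8.59, 9.50, 5.42, 6.61 and 1.81 CPM in IAKA mice 67, 79, 8, 97 and 98, and 6.35, 3.80 and 3.72 CPM in PBS mice 1, 71 and 73. The groups overlapped, with a log2 difference of 0.49 ± 0.57, or 0.99 ± 0.26 within the set of column names starting with 4 (adjusted p = 0.107, edgeR), and the input difference was -0.14 ± 0.58. At 2 weeks it ran from 6.13 to 33.6 CPM in IAKA m6A libraries (median 8.35) and from 2.99 to 7.34 CPM in PBS libraries (median 4.29), and IAKA mouse 6 was the highest of all. The log2 difference of 1.58 ± 0.47 (unadjusted p = 0.00313, adjusted p = 0.949 in edgeR) became 0.81 without mouse 6, 1.04 ± 0.39 within the set of column names starting with 5 and 1.35 ± 0.54 with the set as a block, and none of these passed. In the other 5 IAKA mice the range was 6.13 to 10.3 CPM.

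The m6A library of mouse 6 held 1148 Plau counts, while the input library of the same mouse held 5.61 CPM, a level at the low end of its group. The ratio of m6A over input level was thus 5.98 in mouse 6 and between 0.354 and 1.34 in the other 11 mice where both libraries had more than 3 counts. The same m6A library had the lowest Plat level of its group (9.33 CPM), 17.5% of counts on mitochondrial genes, and 851 CPM of the endothelial marker Pecam1, against 145 to 266 CPM in the other IAKA mice of that time. The endothelial marker Cldn5 was at 0.6 CPM there, the lowest of the group. The part of these features in the Plau value was not tested.

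**Figure D2:**
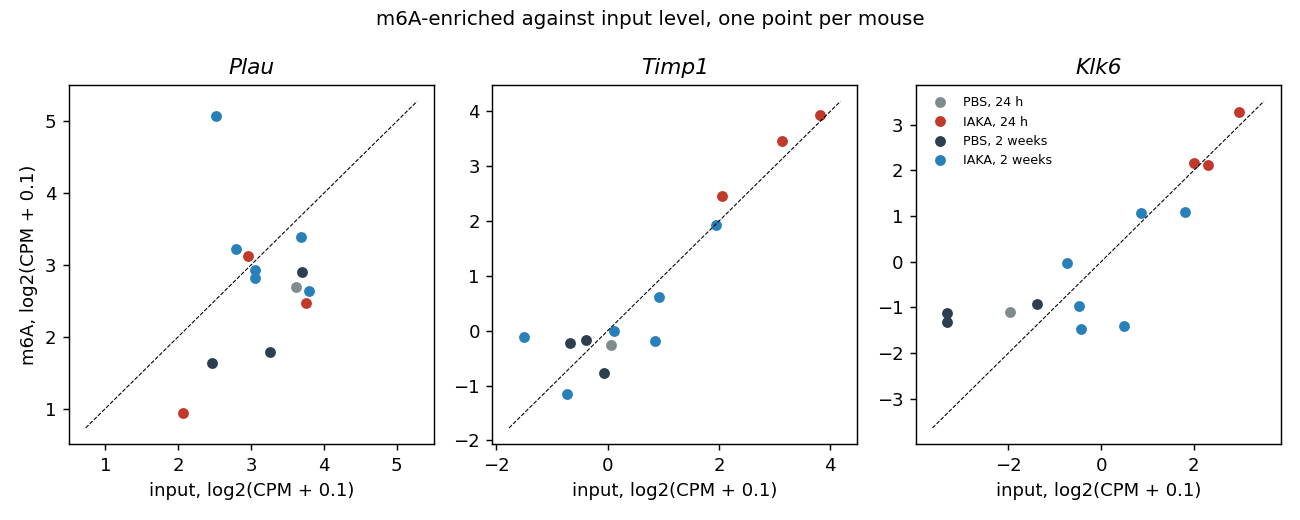
Level in the m6A library against level in the input library of the same mouse, both as log2(CPM + 0.1), for Plau, Timp1 and Klk6 in the 13 mice with both libraries, with points coloured by group and a dashed line of equal level. Mouse 6 (IAKA, 2 weeks) stands far above the line for Plau, while for Timp1 and Klk6 the 24 h IAKA mice are highest on both axes.

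Mmp3 (stromelysin-1) degrades proteoglycans and activates other metalloproteinases. At 24 h its m6A levels were 3.03, 0.47, 2.37, 1.19 and 3.02 CPM in IAKA mice 67, 79, 8, 97 and 98, and 0.37, 0.22 and 0.07 CPM in PBS mice 1, 71 and 73. The groups did not overlap, though mouse 79 was close to PBS mouse 1. IAKA mice 67 and 98 held 6 and 5 counts. In the set of column names starting with 3, which holds no PBS library, the IAKA mean was 2.81 CPM. Within the set starting with 4 the means were 0.83 CPM in IAKA and 0.14 CPM in PBS mice. The log2 fold change of 3.10 ± 1.02 did not pass (unadjusted p = 0.00632, adjusted p = 0.364 in edgeR). The input libraries gave 0.55, 5.38 and 1.82 CPM in IAKA mice 67, 98 and 8 and 0.32 CPM in the PBS mouse. At 2 weeks Mmp3 was near the limit of detection. It had 12 counts over the 6 IAKA and 3 counts over the 5 PBS m6A libraries, and 3 counts over the 6 IAKA and 0 over the 3 PBS input libraries, where 0 counts still allow up to 3.

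Mmp9 (gelatinase B) is the metalloproteinase most tied to synaptic remodelling. Its m6A levels at 24 h were 1.51, 0.66, 1.41, 0.59 and 0 CPM in IAKA mice 67, 79, 8, 97 and 98, and 0.22, 0.90 and 0.36 CPM in PBS mice 1, 71 and 73. The PBS range lay inside the IAKA range, whose ends came from the shallow libraries of mice 98 (0 counts) and 67 (3 counts). The log2 difference was 0.84 ± 0.72 in edgeR (adjusted p = 0.857), within the set of column names starting with 4 it was -0.15 ± 0.62, and without mouse 8 it was 0.25 ± 0.69. In input libraries mouse 8 was highest with 2.82 CPM, from 28 counts, against 1.27 and 0.26 CPM in IAKA mice 67 and 98 and 0.71 CPM in the PBS mouse. Mouse 8 also had the highest summed level of 10 neutrophil and monocyte markers, 55.9 CPM in m6A and 42.2 CPM in input libraries, where the other 24 h m6A libraries ran from 6.58 to 20.7 CPM. Of these 10 markers 4 could be tested, and none passed. All 4 had a difference above 0 at 24 h in m6A libraries (median 1.32). Their part in the Mmp9 values was not tested. At 2 weeks Mmp9 differed by -0.11 ± 0.60 in m6A and by -0.12 ± 0.95 in input libraries.

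Timp1, the secreted inhibitor of metalloproteinases that reactive astrocytes are known to make, stood at 15.2, 8.75, 5.42, 14.6 and 10.9 CPM in the m6A libraries of IAKA mice 67, 79, 8, 97 and 98, and at 0.74, 3.12 and 1.22 CPM in PBS mice 1, 71 and 73. The groups did not overlap. The log2 fold change was 2.61 ± 0.67 (unadjusted p = 0.000938), with an adjusted p of 0.166 in edgeR and of 0.0621 within the set of column names starting with 4. In the input libraries it reached 14.0, 8.70 and 4.03 CPM in IAKA mice 67, 98 and 8 against 0.95 CPM in the PBS mouse, a log2 difference of 3.47 ± 1.10 (unadjusted p = 0.00715, adjusted p = 0.390 in edgeR). Mouse for mouse, the assays gave close values, 15.2 and 14.0 CPM in mouse 67, 10.9 and 8.70 CPM in mouse 98, and 5.42 and 4.03 CPM in mouse 8. Gfap, the filament protein of reactive astrocytes, stood at 1433, 1883, 263, 2162 and 857 CPM in the m6A libraries of IAKA mice 67, 79, 8, 97 and 98 and from 241 to 465 CPM in PBS libraries of 24 h, a log2 difference of 1.95 ± 0.66 (adjusted p = 0.400, edgeR). In input libraries it had 1287, 883 and 166 CPM in IAKA mice 67, 98 and 8 and 172 CPM in the PBS mouse (2.42 ± 0.99, unadjusted p = 0.0297, adjusted p = 0.494 in edgeR). Over all 8 astrocyte markers 3 had a difference above 0 in m6A and 5 in input libraries, with summed m6A levels from 1098 to 5244 CPM in IAKA and from 3133 to 3946 CPM in PBS mice. The part of astrocytes in the Timp1 values was not tested. At 2 weeks Timp1 ran from 0.35 to 3.70 CPM in IAKA m6A libraries (median 0.857) and from 0.49 to 2.54 CPM in PBS libraries (median 0.79). Mouse 42 was the highest of the IAKA mice at 2 weeks in both assays, and also had the highest Gfap level of its m6A group (2498 CPM, the others from 126 to 906 CPM).

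**Figure D3:**
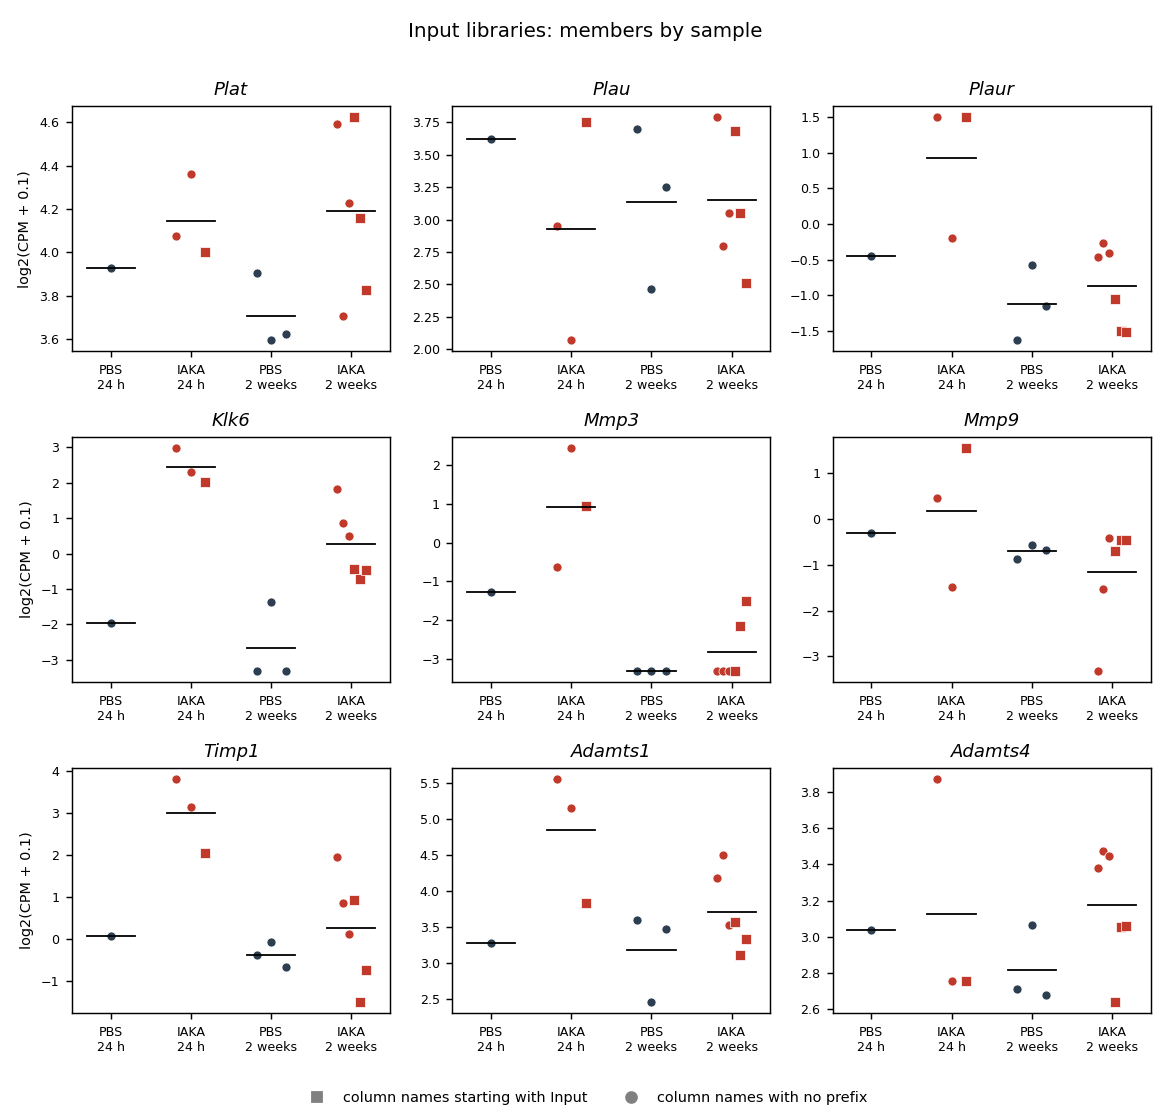
Level of each gene in the 13 input libraries used, as log2(CPM + 0.1), by treatment and time, with IAKA in red, PBS in dark blue and a bar at the group mean; PBS at 24 h is a single library. Klk6, Timp1, Adamts1, Plaur, Plat and Mmp3 were higher in each 24 h IAKA library than in each PBS library of both times. The share of all genes was taken only against the 24 h PBS library (10.9%). The lowest 24 h IAKA library held only 3 counts for Plaur (mouse 98) and for Mmp3 (mouse 67).

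Adamts1 and Adamts4 cut aggrecan, brevican and versican in the matrix around neurons. At 24 h Adamts1 stood in m6A libraries at 55.1, 157, 22.4, 166 and 49.0 CPM in IAKA mice 67, 79, 8, 97 and 98, and at 13.7, 30.2 and 21.5 CPM in PBS mice 1, 71 and 73. Mouse 8 fell below PBS mouse 71, so the groups overlapped. IAKA mice 79 and 97 and PBS mice 71 and 73 belong to the same set of columns, in which the difference was 2.53 ± 0.17 on the log2 scale (edgeR, adjusted p = 0.00387, where 2.11% of all genes passed). Over all libraries it was 1.97 ± 0.60 (adjusted p = 0.271), and with the set as a block 2.24 ± 0.38 (adjusted p = 0.0189, where 0.373% of all genes passed). In input libraries Adamts1 had 46.9, 35.6 and 14.1 CPM in IAKA mice 67, 98 and 8 and 9.61 CPM in the PBS mouse, a log2 difference of 2.00 ± 0.63 that did not pass (adjusted p = 0.390, edgeR).

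At 2 weeks the direction of Adamts1 in m6A libraries turned with the treatment of the sets. It ran from 9.15 to 29.5 CPM in IAKA mice (median 15.1) and from 9.71 to 40.5 CPM in PBS mice (median 17.0). The 2 highest PBS libraries, of mice 50 and 78, were of the set starting with 4, which holds no IAKA library of that time. The difference was -0.37 ± 0.46 over all libraries, 0.55 ± 0.31 with the set as a block and 0.57 ± 0.32 within the set starting with 5, and none of these passed in edgeR (adjusted p from 0.949 to 0.999).

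Adamts4 showed no difference beyond its spread at either time. At 24 h its m6A levels were 18.7, 14.0, 4.75, 17.0 and 11.5 CPM in IAKA mice 67, 79, 8, 97 and 98, and 7.09, 8.32 and 13.3 CPM in PBS mice 1, 71 and 73, with a log2 difference of 0.36 ± 0.53. In input libraries the differences were 0.49 ± 0.45 at 24 h and 0.38 ± 0.30 at 2 weeks. At 2 weeks in m6A libraries it was -0.33 ± 0.43, 0.26 ± 0.42 with the set as a block and 0.81 ± 0.47 within the set of column names starting with 5.

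**Figure D4:**
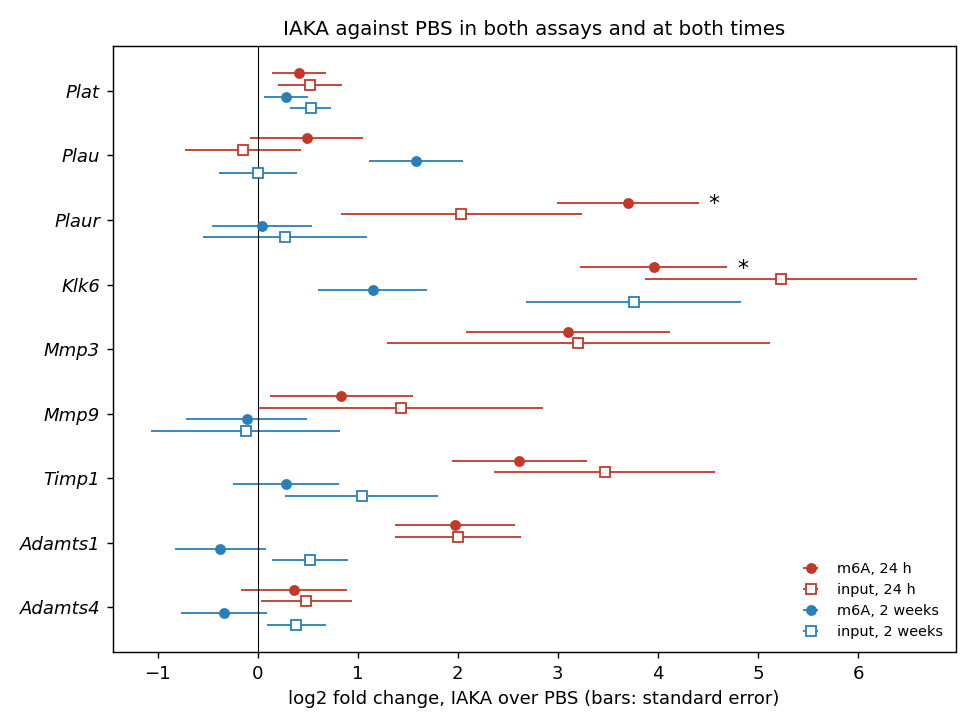
Log2 fold change of IAKA over PBS from edgeR for each gene, with bars of 1 standard error, in m6A (filled circles) and input libraries (open squares) at 24 h (red) and 2 weeks (blue); asterisks mark an adjusted p under 0.05. Mmp3 at 2 weeks is left out because of its few counts. Plaur and Klk6 in m6A libraries at 24 h carry the only asterisks.

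No member passed in the other comparisons. In m6A libraries at 2 weeks 0.00573% of genes passed, and at an unadjusted p under 0.05 Plau and Klk6 were higher against 2.24% of all genes. In no member was every IAKA library above every PBS library there (0.315% of all genes). In input libraries edgeR called 0% of 17644 genes at either time, while at an unadjusted p under 0.05 it gave 1628 genes at 24 h and 1439 at 2 weeks. Klk6, Timp1 and Adamts1 were among those higher at 24 h, a direction that 4.99% of all genes had at that threshold, and Klk6 and Plat at 2 weeks (4.49%). In 6 of 9 members every IAKA input library was above the single PBS library at 24 h, which held for 10.9% of all genes. For Plaur (mouse 98) and Mmp3 (mouse 67) the lowest of these IAKA libraries held only 3 counts. Markers of other cells moved in both directions there, none past the adjustment. Differences above 0 were found for 0 of 6 inhibitory neuron (median -0.38), 1 of 8 oligodendrocyte (-0.50) and 3 of 8 excitatory neuron markers (-0.16). They were also found for 4 of 4 neutrophil and monocyte markers tested (1.79) and 7 of 8 microglia markers (0.93). For astrocyte markers it was 5 of 8 (0.24), and for meningeal and fibroblast markers 6 of 8 (0.545). The summed level of endothelial markers ran from 473 to 1219 CPM in IAKA libraries around 909 CPM in the PBS library. Most of this was Pecam1, at 748, 338 and 1163 CPM in IAKA mice 67, 98 and 8 and 857 CPM in PBS. All 8 endothelial markers had a difference above 0 (median 1.72), 4 of them at an unadjusted p under 0.05. All 5 blood markers did (median 1.87), 2 of them at that threshold, with sums from 11.8 to 38.7 CPM against 7.72 CPM. All 8 choroid plexus markers did (median 0.77), with sums from 126 to 575 CPM against 313 CPM. Their part in the members' values was not tested. DESeq2 called 197 genes (1.12%) at 24 h, with Klk6 among them (adjusted p = 0.0263), and 44 at 2 weeks. The input columns with no prefix hold 2 IAKA mice and 1 PBS mouse at 24 h. A fit of these libraries took its spread from the 2 IAKA libraries alone. Its log2 fold changes were 2.31 for Adamts1, 3.78 for Timp1 and 5.40 for Klk6. The median log2 fold change of all genes at 24 h in input libraries was 0.27 after TMM scaling but -0.04 when only library size was used, so differences of that size there depend on the scaling.

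The change of the IAKA effect between times was tested as an interaction over the 19 m6A libraries, where 0.00573% of genes passed and no member did. At an unadjusted p under 0.05 the effect was larger at 24 h for Plaur, Klk6, Adamts1 and Timp1 (1.82% of all genes), by 3.66 ± 0.86, 2.81 ± 0.87, 2.35 ± 0.74 and 2.33 ± 0.83 on the log2 scale. With voom and quality weights Klk6 (adjusted p = 0.0311) and Plaur (adjusted p = 0.0213) passed, where 0.356% of all genes did.

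Whether the IAKA effect differed between m6A and input libraries was tested in a fit over all 32 libraries, in which 0% of 22654 genes passed at either time. At an unadjusted p under 0.05 edgeR gave 149 genes at 24 h and 527 at 2 weeks, and DESeq2 called 1 and 8. At 24 h the difference was 1.72 ± 1.07 for Plaur, -1.39 ± 1.45 for Klk6, -0.90 ± 1.26 for Timp1 and 0.02 ± 1.09 for Adamts1 on the log2 scale. With the mouse as a replicate block, since both libraries of a mouse come from the same animal, the differences were 1.56 ± 1.30 for Plaur, -1.32 ± 1.34 for Klk6, 0.38 ± 0.83 for Timp1 and -0.32 ± 0.45 for Adamts1, so the direction turned for Timp1 and Adamts1. It turned for 5 other members too. These standard errors leave room for sizeable differences in either direction. At 2 weeks Plau (1.54 ± 0.63) and Klk6 (-2.78 ± 1.35) had the smallest unadjusted p, with adjusted p = 1.00 in edgeR. With a library left out in turn, the difference ran from 0.80 to 1.77 for Plau and from -6.05 to -2.10 for Klk6. The PBS input libraries at 2 weeks held 1 count of Klk6 in all. Averaged over the 4 groups, 8.08% of genes differed between m6A and input libraries and no member did. At an unadjusted p under 0.05 Adamts1 was the member higher in m6A, as were 14.9% of all genes. Adamts1 came nearest, higher in m6A by 0.93 ± 0.35 (adjusted p = 0.0966, edgeR), followed by Plau, at -0.70 ± 0.27 (adjusted p = 0.111). Adamts1 passed without the m6A library of mouse 8 (0.98, adjusted p = 0.0388), where 14.2% of all genes passed, and Plau passed without that of mouse 6 (-0.89, adjusted p = 0.00557, 10.3% of all genes) in edgeR. Both passed in DESeq2, as did 13.9% of all genes. Of the genes called, 1240 were higher in m6A and 591 lower, and with scaling by library size 2942 and 339. Mouse by mouse, the ratio of m6A over input level had a median of 1.42 for Adamts1 (0.909 to 1.79, 13 mice), 1.21 for Plat (0.662 to 2.11, 13 mice), 0.789 for Adamts4 (0.476 to 1.73, 13 mice) and 0.689 for Plau (12 mice).

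Per length of transcript, levels of different genes can be set side by side in input libraries. In the 4 PBS libraries the activators led, Plat at 4.67 ± 0.58 and Plau at 4.06 ± 1.38 CPM per kilobase (SD, n = 4), and did not differ beyond their spread. Adamts1 (1.89 ± 0.58) and Adamts4 (1.24 ± 0.18) followed, with ranges that overlapped. Timp1 (0.407 ± 0.103), Plaur (0.288 ± 0.124) and Mmp9 (0.169 ± 0.033) came next, and Klk6 (0.0731 ± 0.0912) and Mmp3 (0.0437 ± 0.0875) were lowest. In the 3 IAKA libraries at 24 h Adamts1 (6.41 ± 3.31) and Plat (6.10 ± 0.83) stood highest, Timp1 (4.85 ± 2.71) and Klk6 (3.66 ± 1.34) had levels in the range of Plau (3.41 ± 1.91), and Mmp9 was lowest (0.435 ± 0.388).

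The wider system was read from 7 lists of related genes, also chosen with earlier results of these data known. Of 14 genes of plasminogen activation and its inhibitors 11 could be tested in m6A libraries at 24 h, and 3 were higher and none lower at an adjusted p of 0.05: Plaur, Anxa2 and S100a10. The median of the list was 0.49 on the log2 scale, against 0.09 for all genes. Anxa2 and S100a10 encode the chains of a membrane complex that binds Plat and plasminogen at the cell surface. Anxa2 averaged 20.7 ± 9.17 CPM in IAKA (13.7 to 36.4, n = 5) and 4.19 ± 1.42 CPM in PBS mice (2.93 to 5.74, n = 3), without overlap, a log2 fold change of 2.25 ± 0.38 (adjusted p = 0.0272, edgeR). S100a10 averaged 49.3 ± 17.3 CPM (36.9 to 79.4) and 9.77 ± 3.10 CPM (6.30 to 12.2), also without overlap, a log2 fold change of 2.41 ± 0.45 (adjusted p = 0.0317, edgeR). Within the set of columns starting with 4 they differed by 2.04 ± 0.27 and 2.28 ± 0.23 and both passed. Both lost their call without IAKA mouse 79 or 97 or PBS mouse 1, 71 or 73 (adjusted p from 0.0745 to 0.331), and with only the 24 h groups in the fit (adjusted p = 0.103 for Anxa2 and 0.157 for S100a10).

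The other lists gave 1 call. Among kallikrein-related peptidases 8 of 12 were tested and Klk6 was the only gene called, with a list median of 0.20. No gene passed among 13 matrix metalloproteinases tested of 18 (median 0.37), 6 metalloproteinase inhibitors (median 0.15), 19 ADAMTS proteases (median 0.36), 7 ADAM sheddases (median 0.43) and 10 receptors and substrates (median 0.17). No gene of these lists was called in m6A libraries at 2 weeks, or at either time in the 13 input libraries used, in edgeR. With all 16 labelled input libraries Anxa2 passed at 24 h (2.72 ± 0.51, adjusted p = 0.0393), where 0.0565% of all genes passed. Without mouse 8 Anxa2 (2.87 ± 0.53, adjusted p = 0.0291), Adamts1 (2.33 ± 0.51, adjusted p = 0.0458) and Klk6 (5.37 ± 1.21, adjusted p = 0.0462) were among the genes that passed in input libraries at 24 h, where 180 of 15232 genes (1.18%) passed. The m6A differences of Anxa2 and S100a10 at 2 weeks were 1.01 ± 0.30 and 1.14 ± 0.34, both with an adjusted p of 0.949 in edgeR.

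**Figure D5:**
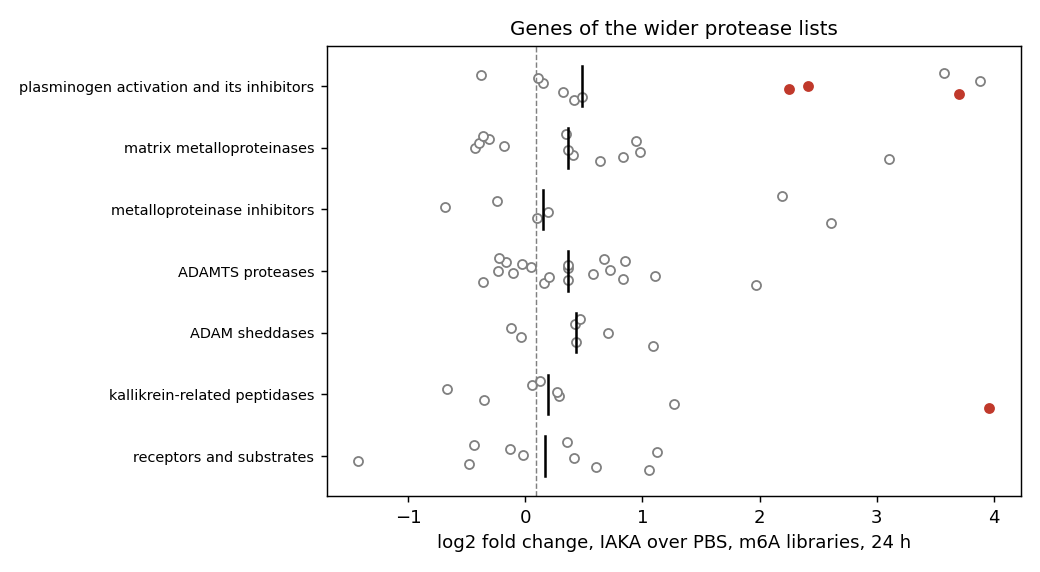
Log2 fold change of IAKA over PBS in m6A libraries at 24 h for the tested genes of 7 protease lists, 1 point per gene, with filled red points past an adjusted p of 0.05, a black bar at the median of each list and a dashed line at the median of all genes. The 4 filled points are Plaur, Anxa2, S100a10 and Klk6, and 5 open points beyond 2 are genes with large differences that did not pass.

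Likeness of pattern was measured as the Pearson correlation of log2 CPM over the 19 m6A libraries among 17440 genes, as a description, since the libraries share their treatment groups, sets and depth. The 5 genes most like Plaur were Tm4sf1 (r = 0.898), Fgfr4 (0.869), Klk6 (0.860), Rbpms2 (0.854) and Plin2 (0.851). Those most like Klk6 were Tm4sf1 (0.921), Ftl1 (0.900), Anxa2 (0.897), Akr1b8 (0.893) and Emp1 (0.890). Among the members, Timp1 and Adamts1 were alike (0.851), as were Timp1 and Klk6 (0.834) and Timp1 and Plaur (0.780). Plau and Mmp9 stood apart, with correlations with the other members from -0.31 to 0.32.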

How the data were processed

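Per the labels, hippocampal RNA of single mice was used as total RNA (input) or after m6A immunoprecipitation for libraries of a stranded total RNA kit. The authors deposited raw read counts per gene symbol for 4 sequencing lanes of each library, on the mm10 build per the submitters' processing notes. No source used here gives the aligner, the counting program or the use of strand. Lanes were summed, giving 35 libraries. The assay stands in the column names of 8 libraries and was read from the column prefix for 27. Another 8 columns of mice without a labelled input library were not used, nor were 3 input libraries under 100000 counts.

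The members and gene lists were chosen with earlier results of these data known. Comparisons used edgeR 4.0.16 in R 4.3.3 with filterByExpr by group, TMM scaling and a robust quasi-likelihood fit of all 4 groups per assay (all 8 groups for comparisons of assays) and Benjamini-Hochberg adjustment at 0.05. Standard errors are the size of the log2 fold change over the square root of F. The single PBS input library at 24 h was assumed to vary like the other groups. The fits were tested on simulated counts. Alternatives were DESeq2 1.42.0, voom with quality weights (limma 3.58.1), scaling by library size, no filter, the set of columns as a block, the mouse as a replicate block, fewer or more libraries, and each library left out. Comparisons within a set of columns were added after the data were seen. Named genes are the 9 members, other list genes past the threshold, and the 5 genes most correlated with Plaur and Klk6 (log2 CPM, prior count 2). The mouse number pairs m6A and input libraries, since both come from the same animal; their deviations from group means correlated at -0.019 to 0.887 in 12 mice, above 0.1 in 10. Lengths for levels per kilobase are the longest protein-coding transcripts of GENCODE vM39. Intervals cover counting error only, as reads carried no molecular identifiers in these tables.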

Additional observations from a re-analysis of the deposited data

Results flagged for a closer look

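Each member's CPM was checked for a library far from the rest of its group by Dixon's test in 36 gene and group combinations. Chance alone would mark about 1 in 20 for normally spread values, a rate that does not carry over to CPM from few counts. The test marked 5 combinations, all in m6A libraries at 2 weeks. They were Plau in IAKA mouse 6 (33.6 CPM), Timp1 in IAKA mouse 42 (3.70 CPM), Plat in PBS mouse 4 (25.8 CPM), Klk6 in PBS mouse 78 (0.78 CPM, from 8 counts) and Mmp3 in PBS mouse 3 (0.183 CPM, from 3 counts). Mmp3 had 0 counts in the other 4 libraries of that PBS group, so any count there would have been marked. The input library of mouse 42 also held the highest Timp1 level of its group (3.75 CPM). That of mouse 6 held the lowest Plau level of its group (5.61 CPM). The 3 input libraries left out for depth held 4 counts of the members in all.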

How the results depend on the processing

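Of 384 fold changes of named genes recomputed under other settings, leaving out single libraries aside, 331 kept direction and call, 19 gained and 5 lost the call, and 29, none of them called, changed sign. With 1 library left out in turn, 954 of 1023 fold changes kept direction and call, 4 gained and 22 lost the call, all 22 in m6A libraries at 24 h, and 43 changed sign. Causes were not tested.

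In m6A libraries at 24 h the members called went from 2 to 4 (DESeq2), 5 (voom), 1 (no filter), 0 (only the 2 groups compared) and 0 to 2 with a library left out. All genes called went from 31 to 202 (DESeq2), 1369 (voom), 65 (set block), 1 (only 2 groups), 356 (within a set) and 1 to 34 (a library left out). At 2 weeks in m6A libraries no member was called in any alternative, and the gene count of 1 became 13 (DESeq2), 2 (set block and no filter), 0 (library size, only 2 groups and within a set) and 0 to 2 (a library left out). The interaction with time gave 0 members and 1 gene, with voom 2 and 62, with DESeq2 5 genes and with the set block 2. Input libraries at 24 h gave 0 members and 0 genes, with DESeq2 1 and 197, with voom 3 and 1076, within a set 3 and 1914, and 8 (all labelled libraries), 2 (set block), 1 (library size) and 3 genes (no filter). A library left out gave 0 to 2 members and 1 to 180 genes, and 180 genes came without IAKA mouse 8. Input libraries at 2 weeks gave 44 (DESeq2), 112 (voom) and 2 genes (no filter) in place of 0, and 0 to 1 with a library left out. The difference between assays gave 1 and 8 genes with DESeq2 at 24 h and 2 weeks, and with the mouse as a replicate block 1 gene at each time, none of them a member. Averaged m6A over input gave 0 members and 1831 genes, with DESeq2 2 and 3139, with library size 1 and 3281, with the replicate block 0 and 1631, and with a library left out 0 to 1 and 1339 to 3042.

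Signs turned as follows on the log2 scale. Mmp9 in m6A libraries at 24 h had -0.30 (voom) and -0.15 (within a set). At 2 weeks the set block gave Plaur -0.046, Mmp3 -0.23, Adamts1 0.55 and Adamts4 0.26, within a set Adamts1 had 0.57 and Adamts4 0.81, and Plaur had -0.019 with library size. In the time interaction voom gave Plat -0.17 and Mmp9 -0.058. In input libraries Adamts4 had -0.027 at 24 h (all labelled libraries), and Plau at 2 weeks had -0.20 (set block), -0.025 (library size) and -0.18 (voom). For the difference between assays at 24 h, library size gave Plat 0.20, Mmp3 0.10 and Adamts4 0.26 (the median of all genes moved from 0.0022 to 0.26), and the replicate block gave Plau -0.067, Plat 0.059, Timp1 0.38, Mmp9 0.77, Mmp3 0.029, Adamts1 -0.32 and Adamts4 0.090, and at 2 weeks Adamts4 0.30. For m6A over input Mmp3 had -0.43 (DESeq2), and with the replicate block Timp1 had -0.23 and Adamts4 -0.39.

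With a library left out, the ranges that crossed 0 were, for the difference between assays at 2 weeks, Mmp9 -0.28 to 0.31 and Plaur -0.63 to 0.50, at 24 h Adamts1 -0.37 to 0.39, Adamts4 -0.31 to 0.43, Mmp3 -0.62 to 1.00, Mmp9 -0.99 to 0.26 and Plat -0.20 to 0.050. In input libraries they were Mmp9 -0.26 to 0.088, Plau -0.21 to 0.26 and Plaur -0.013 to 0.67 at 2 weeks and Plau -0.80 to 0.18 at 24 h. At 2 weeks in m6A libraries they were Adamts4 -0.60 to 0.088, Mmp9 -0.39 to 0.21, Plaur -0.22 to 0.78 and Timp1 -0.39 to 0.81, for the time interaction Mmp3 -0.69 to 2.59 and Plat -0.057 to 0.23, and for m6A over input Mmp3 -0.33 to 0.54. Members with few counts (Mmp3, Mmp9, Plaur and Klk6 in PBS libraries) and the single PBS input library at 24 h limit what these comparisons can show. Within a set, the input fit at 24 h took its spread from 2 IAKA libraries alone.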
